A study of Mus musculus with 6 samples.

Results

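The genes of the leukocyte integrins and of their intracellular activators were followed in mouse leukemia cells treated with an inhibitor of the arginine methyltransferase PRMT5. The set holds 10 genes chosen by symbol, the integrin subunits Itgam, Itgal, Itgax, Itgb2, Itga4, Itgb1, Itgb7 and Itga2b together with Fermt3 and Tln1, and all 10 have a row among the 11644 genes of the deposited table. The inhibitor libraries came from MLL-ENL/NrasG12D cells, a mouse line with a fusion of the methyltransferase MLL to ENL and an activated Nras, cultured for 72 h with 5 µM of the PRMT5 inhibitor EPZ 015666 and given the compound again on day 2. The DMSO libraries came from the same line, with the same fusion and the same Nras allele, cultured for the same time with an equal amount of the solvent DMSO. Each treatment has 3 libraries of polyadenylated RNA. The series calls them independent replicates without saying what was repeated, and whether the line is 1 clone is not stated, so the p-values measure the spread between these libraries. The treatment stands for small-molecule inhibition of PRMT5 in leukemia with a rearranged MLL gene, and the question here is how the adhesion receptors of such cells differ under it.

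Integrins are adhesion receptors made of 1 alpha and 1 beta chain, which must pair in the endoplasmic reticulum before they reach the surface. On leukocytes the beta2 chain Itgb2 (CD18) pairs with Itgal (CD11a, giving LFA-1), Itgam (CD11b, giving MAC-1), Itgax (CD11c) or Itgad (CD11d), and the alpha4 chain Itga4 pairs with Itgb1 (giving VLA-4) or Itgb7. The receptors rest in a bent, weakly binding form until talin, encoded by Tln1, and kindlin-3, encoded by Fermt3, bind the short beta tail inside the cell. In myeloid cells CD11b is a widely used surface marker that becomes abundant as precursors mature, whereas VLA-4 holds early blood cells in the bone marrow.

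Inhibitor treatment raised 4 of the 10 genes (Itgam, Itgax, Itgb2 and Itga2b) and lowered 3 (Itgal, Itga4 and Itgb7), while Itgb1, Fermt3 and Tln1 did not pass the test. A gene was called when its limma-trend adjusted p, taken over all 11644 genes, was under 0.05. By that rule 23.6% of all genes were higher and 22.9% lower, or 46.5% in either direction, so calls were common in these data and nothing particular to the 10 is read from their number. Itgam and Itga2b were at least 2-fold higher and Itgal at least 2-fold lower, as were 7.16% and 3.04% of all genes. In 7 of the 10 genes the inhibitor and DMSO values did not overlap, against 56.0% of all genes. The median log2 fold change of the 10 was 0.14, beside 0.00 over all genes. Values are normalized counts, that is, reads per gene divided by 1 size factor per library, which compare libraries for the same gene and not genes of different length. The libraries held 11335948 to 15551525 reads with the inhibitor and 15505127 to 19197912 with DMSO, and each of the 10 genes other than Itga2b averaged over 700 normalized counts in both groups. In bulk RNA, fewer cells of a type and less RNA per cell cannot be told apart.

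**Figure D1:**
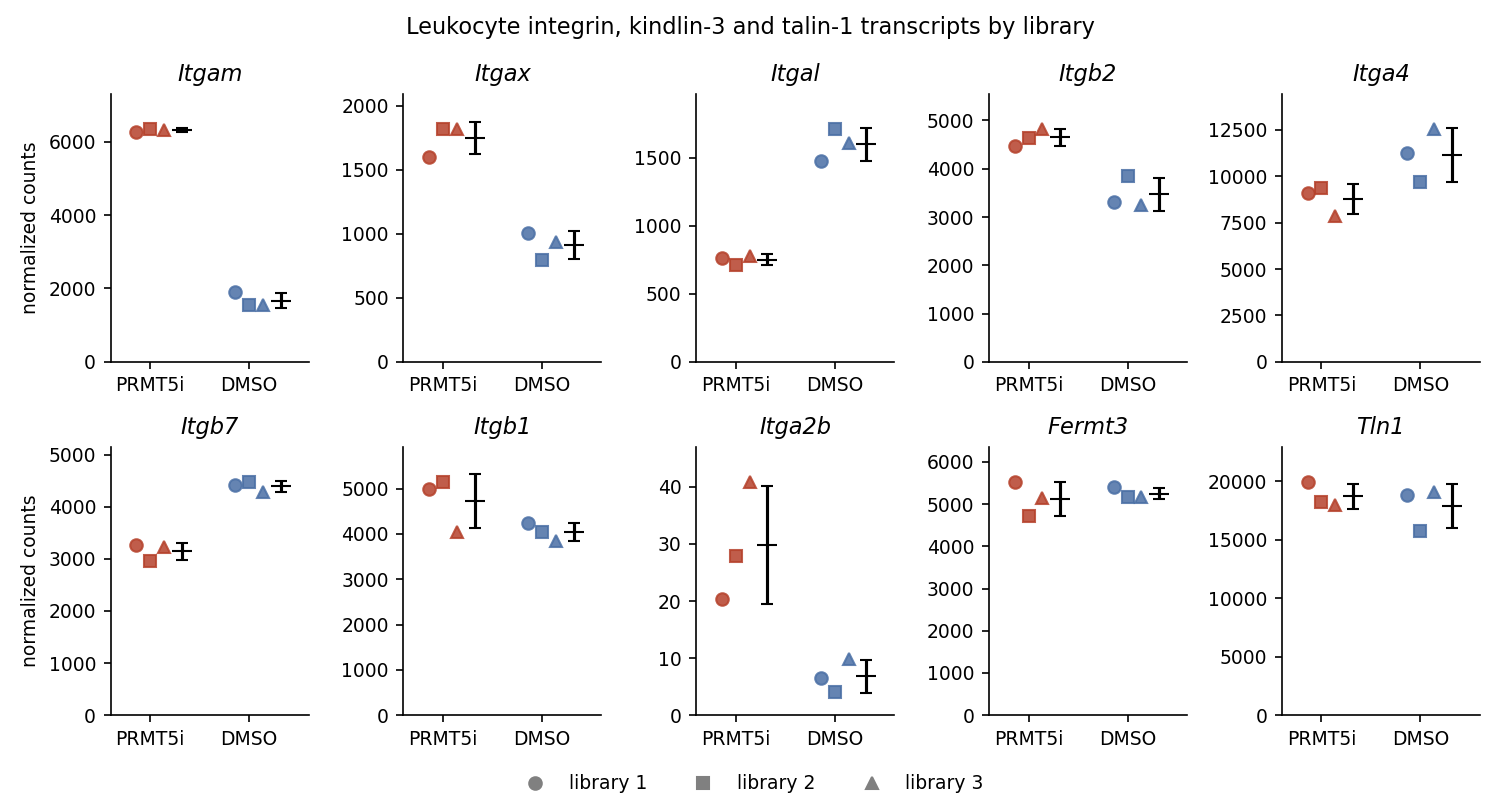
Normalized counts (y axes, each starting at 0) of the 10 genes in the 3 inhibitor libraries (PRMT5i, red) and the 3 DMSO libraries (blue). Symbols are single libraries and black marks the mean and SD. The groups are separate for Itgam, Itgax, Itgal, Itgb2, Itga4, Itgb7 and Itga2b and overlap for Itgb1, Fermt3 and Tln1.

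The start regions of a pair of risen genes that lie side by side, Itgam and Itgax, and of a pair of fallen genes that together encode the receptor alpha4beta7, Itga4 and Itgb7, are shown so that the letters can be read beside the changes. Each runs from 250 bases before to 50 bases after the gene start in RefSeq, on the GRCm38.p6 build, 5′ to 3′ on the strand of the gene. Capitals mark 4 motifs searched on both strands: GAGGAA (reverse TTCCTC), the purine-rich core bound by PU.1; TGTGGT (reverse ACCACA), the RUNX core; GGGCGG (reverse CCGCCC), the GC box; and TATAAA (reverse TTTATA), the TATA box.
Itgam, chr7:128062390-128062689, plus strand: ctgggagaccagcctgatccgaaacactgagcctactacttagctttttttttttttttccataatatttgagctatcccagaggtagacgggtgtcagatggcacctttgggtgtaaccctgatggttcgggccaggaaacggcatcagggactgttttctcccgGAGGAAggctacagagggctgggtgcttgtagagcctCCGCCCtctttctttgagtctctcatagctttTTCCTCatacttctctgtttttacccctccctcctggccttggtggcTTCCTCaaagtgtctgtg
Itgax, chr7:128129300-128129599, plus strand: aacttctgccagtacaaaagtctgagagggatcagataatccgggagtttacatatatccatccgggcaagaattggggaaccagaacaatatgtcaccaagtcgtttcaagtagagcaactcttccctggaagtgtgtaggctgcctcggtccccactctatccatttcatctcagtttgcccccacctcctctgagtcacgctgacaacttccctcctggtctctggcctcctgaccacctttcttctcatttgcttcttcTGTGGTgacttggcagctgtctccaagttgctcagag
Itga4, chr2:79255176-79255475, plus strand: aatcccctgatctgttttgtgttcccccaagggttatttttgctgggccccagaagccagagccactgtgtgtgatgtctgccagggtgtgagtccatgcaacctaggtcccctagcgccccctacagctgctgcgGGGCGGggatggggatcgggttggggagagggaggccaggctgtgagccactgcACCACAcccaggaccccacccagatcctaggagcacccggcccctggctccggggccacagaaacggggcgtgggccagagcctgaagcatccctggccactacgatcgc
Itgb7, chr15:102231886-102232185, minus strand: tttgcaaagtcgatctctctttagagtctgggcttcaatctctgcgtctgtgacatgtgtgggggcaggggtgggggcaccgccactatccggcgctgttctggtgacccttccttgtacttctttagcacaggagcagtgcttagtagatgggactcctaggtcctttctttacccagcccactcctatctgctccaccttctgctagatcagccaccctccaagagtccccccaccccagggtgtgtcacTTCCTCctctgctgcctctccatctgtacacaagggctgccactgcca
The Itgam window held 3 matches to GAGGAA and 1 to the GC box. The Itgax window held 1 RUNX core and no other match, the Itga4 window 1 RUNX core and 1 GC box, and the Itgb7 window 1 match to GAGGAA, which starts at base 253 of the window. Of the windows not shown, those of Itgb1, Itga2b and Tln1 held GAGGAA, that of Fermt3 the RUNX core and that of Itgb1 also the GC box. No TATA box was found in the 8 of 10 start regions that could be matched, which leave out Itgal and Itgb2. Of 32851 start regions of the same length, 28.3% held GAGGAA, 16.8% the RUNX core, 35.7% the GC box and 13.6% the TATA box. Matches are letters only, and binding of these factors was not measured.

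Among the alpha chains of beta2 the changes went in opposite directions. Itgam (chromosome 7, 128062640 to 128118491, plus strand), the alpha chain of MAC-1, a receptor for complement fragments and fibrinogen, had 6269, 6357 and 6315 normalized counts in inhibitor libraries 1 to 3, against 1901, 1542 and 1559 in DMSO libraries 1 to 3. The inhibitor values lay close together and far above every DMSO value. The ratio of means was 3.79 and the log2 fold change 1.93 ± 0.09 (SE; limma adjusted p = 5.44e-08). Itgam rose further than 97.0% of all genes. A readthrough model, Gm49368, shares 3450 exonic bases with Itgam on the same strand in GENCODE, and whether the authors' annotation held it is not given in the sources used here.

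Itgal (chromosome 7, 127296260 to 127335138, plus strand) encodes the alpha chain of LFA-1, the receptor for intercellular adhesion molecules that nearly all leukocytes carry. It had 765, 709 and 782 normalized counts with the inhibitor, against 1477, 1716 and 1606 with DMSO. All inhibitor libraries lay well below all DMSO libraries. The log2 fold change was -1.09 ± 0.09 (SE; limma adjusted p = 2.62e-06), and 2.72% of all genes had a lower one. Mean levels were 752 ± 38.4 with the inhibitor and 1600 ± 120 with DMSO (SD, n = 3 per group).

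Itgax, the alpha chain of complement receptor 4 and a common marker of dendritic cells and of some macrophages, had 1599, 1821 and 1819.8 normalized counts with the inhibitor, against 1007, 797 and 935 with DMSO. The groups were apart, and the ratio of means was 1.91 (log2 fold change 0.94 ± 0.10 SE, limma adjusted p = 2.16e-05). Itgad, the remaining alpha chain of this family, stayed low, at 28.6, 30.8 and 25.8 with the inhibitor and 37.5, 33.1 and 26.5 with DMSO. It did not pass the test (log2 fold change -0.17, 95% interval -0.69 to 0.35, limma adjusted p = 0.576).

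Itgb2 (chromosome 10, 77530252 to 77565708, plus strand), the beta chain that all of these need to reach the surface, moved less than Itgam. It had 4468, 4647 and 4834 normalized counts with the inhibitor, against 3304, 3860 and 3253 with DMSO. The groups did not overlap, and DMSO library 2 was the highest of the DMSO libraries. The ratio of means was 1.34 (log2 fold change 0.42 ± 0.09 SE, limma adjusted p = 0.00228).

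Itgal fell while Itgam and Itgax rose, and the make-up of the alpha chain transcripts differed between the groups. Counts were divided by the length of the longest coding transcript in GENCODE, and each chain was taken as a share of the sum of Itgal, Itgam, Itgax and Itgad per kilobase. Itgam made up 70.9%, 69.6% and 69.0% of that sum in the inhibitor libraries, against 42.9%, 38.2% and 37.9% in the DMSO libraries. Itgal made up 7.76%, 6.96% and 7.66% with the inhibitor, against 29.9%, 38.1% and 35.0% with DMSO. The share of Itgax, 22.3% ± 1.22 with the inhibitor and 25.1% ± 2.01 with DMSO (SD, n = 3 per group), overlapped between the groups although its level was called higher. In DMSO libraries 2 and 3, Itgam and Itgal stood at nearly the same level per kilobase, and in every inhibitor library Itgam was far above Itgal. The log2 ratio of Itgam to Itgal was 3.19, 3.32 and 3.17 with the inhibitor and 0.52, 0.0029 and 0.11 with DMSO, a difference of 3.01 between the means. An exact two-sided permutation test over libraries gave p = 0.10 for that ratio and for the shares of Itgam and Itgal, the smallest p that 3 against 3 libraries can give, or 0.125 when adjusted over the 10 shares and ratios computed.

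**Figure D2:**
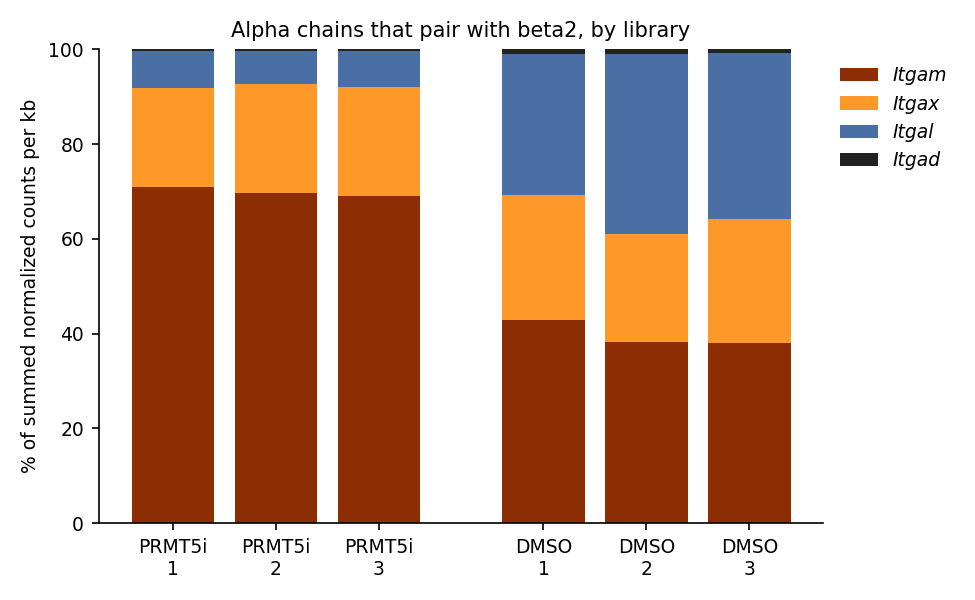
Share (y axis, % of the summed normalized counts per kb) of each alpha chain that pairs with beta2, in the 3 inhibitor and the 3 DMSO libraries. Itgam fills 69.0% to 70.9% of the bars with the inhibitor and 37.9% to 42.9% with DMSO, and Itgal 6.96% to 7.76% with the inhibitor and 29.9% to 38.1% with DMSO.

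Set against their shared beta chain, the summed alpha chain transcripts were more abundant with the inhibitor. Their log2 ratio to Itgb2, per kilobase, was 0.33, 0.32 and 0.26 in inhibitor libraries and -0.23, -0.59 and -0.32 in DMSO libraries. Alpha transcripts thus stood above Itgb2 in every inhibitor library and below it in every DMSO library (difference 0.68; exact permutation p = 0.10, adjusted 0.125). These ratios depend on the transcript lengths used, and protein levels were not measured.

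Itgam and Itgax are neighbours on chromosome 7, with 11.1 kb between them, and Itgal lies 728 kb away on the same strand. The change did not run evenly along that stretch. Of 28 measured coding genes between Itgal and Itgam, 4 were higher, 11 were lower and 13 did not pass, with a median log2 fold change of -0.20. Over all genes, 23.6% were higher and 22.9% lower, with a median of 0.00. The measured gene just before Itgam was Pycard, the inflammasome adaptor ASC, which rose by 0.66 on the log2 scale (limma adjusted p = 2.38e-04). On the other side, Itgad starts 91.7 kb after the start of Itgam and did not pass, and Cox6a2, which overlaps it on the opposite strand, was lower, at 1240 ± 39.6 and 1713 ± 457 normalized counts with the inhibitor and DMSO (SD, n = 3 per group; limma adjusted p = 0.0261).

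**Figure D3:**
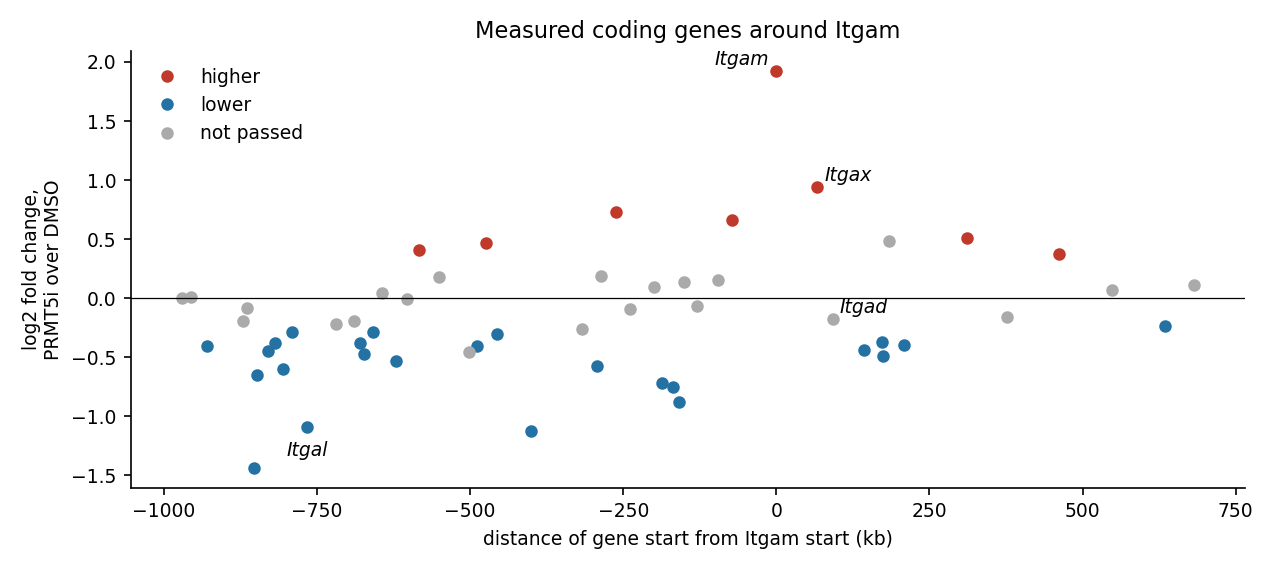
Log2 fold change, PRMT5i over DMSO (y axis), of measured protein-coding genes by the distance of their start from that of Itgam (x axis, kb). Red points were higher, blue points lower and grey points did not pass. Itgam (1.93) and Itgax (0.94) stand above the genes around them, and Itgal (-1.09) is among the lowest.

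Of the genes of the alpha4 receptors, Itgb7 and Itga4 were called lower and Itgb1 did not pass. Itga4 (chromosome 2, 79255426 to 79333123, plus strand), whose receptors bind the vascular adhesion molecule VCAM-1 and fibronectin, had 9076, 9358 and 7863 normalized counts with the inhibitor, against 11238, 9666 and 12562 with DMSO. The groups came close, with inhibitor library 2 just under DMSO library 2. The log2 fold change was -0.34 ± 0.12 (SE; limma adjusted p = 0.0286). This call was lost without inhibitor library 2 (adjusted p = 0.0533) or 3 (0.0876) and without DMSO library 1 (0.0738) or 3 (0.131). Cerkl shares 1124 exonic bases with Itga4 on the opposite strand, at 32.5 and 23.5 normalized counts with the inhibitor and DMSO.

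Itgb7, the beta chain of the gut-homing receptor alpha4beta7, had 3263, 2960.3 and 3224 normalized counts with the inhibitor, against 4413, 4480.3 and 4281 with DMSO. All inhibitor libraries were lower, and the spread within either group was small. The log2 fold change was -0.48 ± 0.08 (SE; limma adjusted p = 4.59e-04). Itgb1, the beta chain shared by the receptors for fibronectin, laminin and collagen, had 4979.8, 5150.1 and 4037 with the inhibitor, against 4233, 4037 and 3834 with DMSO. Inhibitor libraries 1 and 2 were above all DMSO libraries and inhibitor library 3 was level with DMSO library 2. Itgb1 did not pass (log2 fold change 0.22 ± 0.10 SE, limma adjusted p = 0.0954), but it passed as higher without inhibitor library 3 (0.33, adjusted p = 0.00965). It also passed as higher when the replicate number was fitted as a block (limma adjusted p = 0.0457).

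The balance of the beta partners of alpha4 differed as well. Per kilobase, the log2 ratio of Itgb7 to Itgb1 was -0.10, -0.29 and 0.18 in the inhibitor libraries and 0.57, 0.66 and 0.67 in the DMSO libraries. Itgb7 exceeded Itgb1 in all DMSO libraries and in 1 inhibitor library (exact permutation p = 0.10, adjusted 0.125). The log2 ratio of Itga4 to Itgb1 was -0.46 ± 0.06 with the inhibitor and 0.10 ± 0.23 with DMSO (SD, n = 3 per group; exact permutation p = 0.10, adjusted 0.125). That of Itga4 to Itgb7 overlapped between the groups, at -0.39 ± 0.19 with the inhibitor and -0.53 ± 0.22 with DMSO (SD, n = 3 per group; exact permutation p = 0.50, adjusted 0.50).

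Itga2b encodes alphaIIb (CD41), the platelet fibrinogen receptor chain that is also found on early blood precursors. It was the scarcest of the 10, with 20.4, 28.0 and 40.9 normalized counts in the inhibitor libraries, against 6.52, 4.04 and 9.82 in the DMSO libraries. The groups did not overlap, and the log2 fold change was 2.00 ± 0.39 (SE; limma adjusted p = 0.00145). These values rest on 78 reads with the inhibitor and 23 reads with DMSO in all, with 5 reads in the lowest DMSO library. The table lists genes that reach 10 or more reads in at least 1 library, so Itga2b sits close to the lower edge of what was listed. Itgb3, the beta chain that pairs with it, was measured at 1248 ± 70.6 with the inhibitor and 1285 ± 29.2 with DMSO (SD, n = 3 per group; limma adjusted p = 0.678).

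The activators showed no difference that passed. Fermt3 (chromosome 19, 6998958 to 7019469, minus strand), the blood cell kindlin whose loss in humans causes leukocyte adhesion deficiency with bleeding, had 5530.3, 4721 and 5136 normalized counts with the inhibitor, against 5404, 5166 and 5179 with DMSO. The groups overlapped, and the log2 fold change was -0.04 with a 95% interval of -0.22 to 0.15 (limma adjusted p = 0.753). Tln1 (chromosome 4, 43531519 to 43562691, minus strand), the talin of blood cells, which links integrin tails to actin, had 19944.5, 18205 and 17962 with the inhibitor, against 18812, 15748 and 19095 with DMSO. These also overlapped (log2 fold change 0.07, 95% interval -0.18 to 0.32, limma adjusted p = 0.646). Neither test shows that the levels were equal. On the opposite strand, Trpt1 shares 89 exonic bases with Fermt3, and Creb3, at 555 and 307 normalized counts with the inhibitor and DMSO, shares 360 with Tln1.

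**Figure D4:**
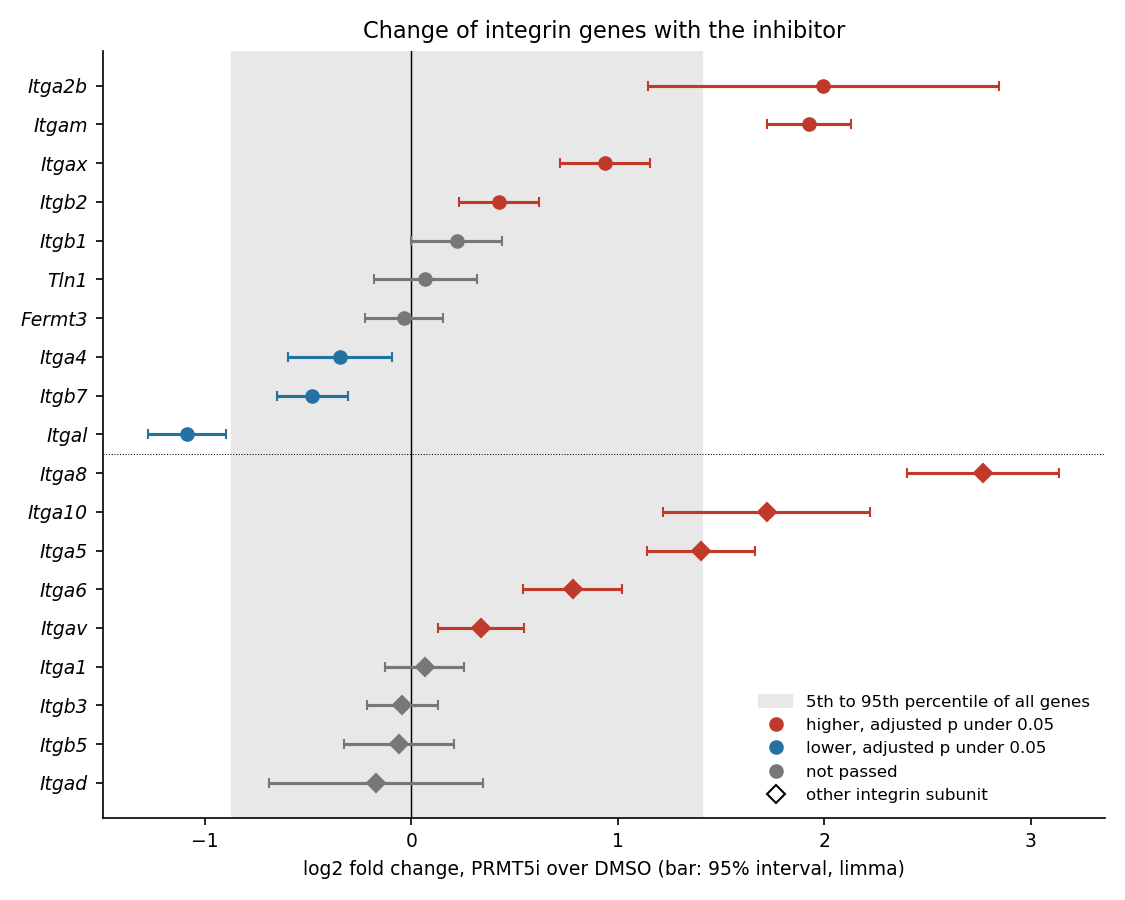
Log2 fold change, PRMT5i over DMSO (x axis), of the 10 genes (circles, above the dotted line) and of 9 other integrin subunits (diamonds), with 95% intervals from limma. The grey band spans the 5th to 95th percentile of all genes. Of the 10 genes, Itga2b and Itgam lie above the band and Itgal below it. Of the other subunits, Itga8 and Itga10 also lie above it.

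Levels of different genes were ordered per kilobase of the longest coding transcript. With the inhibitor, mean normalized counts per kilobase ran from Tln1 (2229 ± 129) and Fermt3 (1983 ± 156) over Itgb2 (1566 ± 61.6), Itgam (1348 ± 9.40), Itgb1 (1238 ± 157), Itgb7 (1174 ± 61.3), Itga4 (897 ± 81.3), Itgax (432 ± 31.6) and Itgal (144 ± 7.35) to Itga2b (8.66 ± 3.01; SD, n = 3 per group). Within 1 SD of the means, Tln1 and Fermt3 overlapped, as did Itgb1 with Itgam and with Itgb7. Library by library, however, Tln1 was above Fermt3 and Itgam above Itgb1 in each inhibitor library. Itgb1 was above Itgb7 in inhibitor libraries 1 and 2 and below it in library 3. With DMSO the order was Tln1 (2131 ± 221), Fermt3 (2029 ± 51.7), Itgb7 (1637 ± 37.9), Itgb2 (1169 ± 113), Itga4 (1142 ± 148), Itgb1 (1058 ± 52.3), Itgam (356 ± 43.3), Itgal (306 ± 23.0), Itgax (226 ± 26.4) and Itga2b (1.98 ± 0.844). There, Tln1 and Fermt3 overlapped within 1 SD, as did Itgb2, Itga4 and Itgb1 with each other and Itgam with Itgal. Among the alpha chains of the set, Itgam stood above Itga4 with the inhibitor and below it with DMSO. This order depends on the transcript lengths used, 4682 bases for Itgam and 9767 for Itga4. In normalized counts not divided by length, Itga4 was above Itgam with the inhibitor too (8766 and 6314).

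The spread between libraries differed among the genes. The coefficient of variation, SD over mean, was 0.697% for Itgam with the inhibitor and 12.2% with DMSO, whereas Itgb1 varied by 12.7% with the inhibitor and 4.95% with DMSO. Itga2b varied most, by 34.8% with the inhibitor and 42.7% with DMSO. Each coefficient rests on 3 values, so it is imprecise, and differences in spread were not tested. In DMSO library 2 the log2 value of the 10 genes differed from the mean of the other DMSO libraries by -0.84 (Itga2b) to 0.24 (Itgb2). Without that library 4 of the 10 genes were still called higher and 3 lower.

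Patterns over the 6 libraries were compared among 9099 other genes with a mean of at least 100 normalized counts, as a description only, since all values share the 2 treatment groups. The values most correlated with those of Itgb2 were of Tmem126a (Pearson r = 0.997), Hexa (0.996) and Cd300lb (0.996), and those most correlated with Itgb1 were of Tm9sf2 (0.995), Ndufa9 (0.994) and Actr3 (0.993).

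Other integrin subunits had 9 of 18 listed members in the table, of which 5 rose and 4 did not pass, with a median log2 fold change of 0.34. The shares over all genes were 23.6% higher and 22.9% lower, with a median of 0.00. Itga5, the fibronectin receptor chain, had 511 ± 63.2 normalized counts with the inhibitor and 192 ± 16.1 with DMSO (limma adjusted p = 4.21e-06). Itga6, a laminin receptor chain, had 2339 ± 333 and 1355 ± 113 (limma adjusted p = 1.55e-04), and Itgav 928 ± 73.2 and 736 ± 63.9 (limma adjusted p = 0.0127) with the inhibitor and DMSO. Both Itga5 and Itga6 pair with Itgb1, as Itga4 does, and they rose while Itga4 fell. The largest ratio was that of Itga8, at 262 ± 44.4 with the inhibitor and 37.4 ± 4.20 with DMSO, and Itga10, a collagen receptor chain, was also higher, at 127 ± 38.1 with the inhibitor and 37.3 ± 7.68 with DMSO (SD, n = 3 per group). Itga1, Itgb3, Itgb5 and Itgad did not pass, with log2 fold changes between -0.17 and 0.07. Of the other talins and kindlins, Tln2 alone was measured, at 22.9 ± 2.17 and 38.5 ± 6.53 normalized counts with the inhibitor and DMSO (limma adjusted p = 0.0277), and its call was lost without inhibitor library 2 or 3 or DMSO library 2.

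The wider adhesion pathway was read from 9 lists by role, which hold 90 measured genes beside the 10. Of these 90, 33 were higher (36.7%), 16 lower (17.8%) and 41 did not pass, with a median log2 fold change of 0.19, beside 23.6% higher and 22.9% lower over all genes. The 33 include Jam2 and the 16 include Adgre5. Both were listed only through the group where they are high, and their calls support nothing. Without inhibitor library 2, 9 were lower in place of 16. The counts of each list below stand beside the same shares over all genes, and nothing particular to a list is read from them.

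RAP1 is the small GTPase that recruits talin to integrins. Of 15 measured genes on this route, 5 were higher, 4 lower and 6 did not pass. Its exchange factors differed in direction: Rasgrp3 had 373 ± 17.8 normalized counts with the inhibitor and 82.5 ± 46.6 with DMSO (limma adjusted p = 9.32e-05), and Rasgrp2, which encodes the exchange factor CalDAG-GEFI, had 299 ± 46.5 with the inhibitor and 582 ± 35.2 with DMSO (limma adjusted p = 5.99e-05). The adaptors Fyb and Skap2, which form a complex that binds the RAP1 effector RIAM, rose by 0.75 and 0.50 on the log2 scale (limma adjusted p = 4.27e-05 and 4.00e-04). Rap1a and Rap1b rose by 0.29 and 0.31 (limma adjusted p = 0.0244 and 0.0245). The RAP1 effector Rassf5, the exchange factor Rapgef1 and the adaptor Crkl fell by 0.38, 0.46 and 0.33 (limma adjusted p = 0.00580, 7.73e-04 and 0.0128). The number of higher genes was 3 without inhibitor library 2 or 3 or without DMSO library 1 or 3.

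Among 10 measured genes that restrain integrin activation, 1 was higher, 1 lower and 8 did not pass. Rasa3, which turns RAP1 and RAS off, had 2454 ± 260 with the inhibitor and 3711 ± 192 with DMSO (SD, n = 3 per group; limma adjusted p = 2.96e-04), and Itgb1bp1, which competes with talin and kindlin for the beta1 tail, had 653 ± 112 with the inhibitor and 484 ± 25.1 with DMSO (limma adjusted p = 0.0121). There were 2 higher genes without DMSO library 2, and 2 lower ones without inhibitor library 3 or by edgeR.

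Adaptors that tie integrins to actin split as well: of 14, 3 were higher, 4 lower and 7 did not pass. Actn1, an actin cross-linker, had 122, 171 and 155 normalized counts with the inhibitor, against 6.52, 13.7 and 12.8 with DMSO, from 38 reads with DMSO in all (limma adjusted p = 1.71e-06). Parvg, the blood cell parvin that binds integrin-linked kinase, fell to 4401 ± 389 with the inhibitor, against 7863 ± 214 with DMSO (limma adjusted p = 2.07e-05). Tes rose by 0.48 and Zyx, a focal adhesion protein, fell by 0.29 on the log2 scale (limma adjusted p = 5.24e-04 and 0.0190). Of the remaining calls, Vasp, an actin polymerization factor, rose by 0.28 with overlapping values, and Ilk, the integrin-linked kinase itself, and Coro1a fell by 0.23 and 0.27 (limma adjusted p = 0.0425, 0.0374 and 0.0385). The number of lower genes was 1 without inhibitor library 2 or DMSO library 1, and 2 without DMSO library 2 or 3.

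Of 15 genes of signalling from bound integrins, 7 were higher, 1 lower and 7 did not pass. Ptk2b, the adhesion kinase PYK2, had 4738 ± 263 with the inhibitor and 2729 ± 107 with DMSO (SD, n = 3 per group; limma adjusted p = 1.48e-05). The SRC family kinases Lyn and Fgr rose by 0.38 and 1.03 on the log2 scale (limma adjusted p = 0.00873 and 0.00245), and Fcer1g, an adaptor that beta2 integrins use to signal in myeloid cells, by 0.47 (limma adjusted p = 0.00140). Its relative Tyrobp (DAP12) rose by 0.40 and the exchange factor Vav2 by 0.31 (limma adjusted p = 0.0139 and 0.0120). The lower call was Adgre5 (CD97), at 9 reads with the inhibitor and 42 with DMSO in all. It reached 10 reads in DMSO libraries only, so it was listed through the group where it is high and its call supports nothing. Without inhibitor library 1, 2 genes of this list were lower.

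Ligands and counter-receptors had 8 of 20 members in the table, of which 5 were higher, 1 lower and 2 did not pass, and the median log2 fold change was 1.35. Spp1, or osteopontin, a ligand of alpha4 and alphaV integrins, had 11928 ± 1070 normalized counts with the inhibitor and 758 ± 145 with DMSO (limma adjusted p = 5.03e-09). The ligands of LFA-1 differed in direction: Icam1 had 1060 ± 47.5 and 480 ± 131 (limma adjusted p = 8.08e-05), and Icam2 322 ± 6.40 and 809 ± 109 (limma adjusted p = 2.87e-06) with the inhibitor and DMSO (SD, n = 3 per group). Thbs1, or thrombospondin-1, rose by 3.01 on the log2 scale (limma adjusted p = 4.18e-07). Vwf, or von Willebrand factor, was also higher (limma adjusted p = 2.33e-04). The remaining call among the 5 was Jam2, with 26 reads with the inhibitor and 2 with DMSO in all. It reached 10 reads in 1 inhibitor library and in no DMSO library, so it was listed through the group where it is high and its call supports nothing. The count of 5 and the median of 1.35 include Jam2.

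Membrane partners of integrins counted 4 higher, 2 lower and 4 not passed of 10. Plaur, the urokinase receptor, which associates with MAC-1, had 983 ± 26.1 with the inhibitor and 161 ± 47.2 with DMSO (SD, n = 3 per group; limma adjusted p = 3.52e-07), and Cd47, the integrin-associated protein, rose by 0.43 on the log2 scale (limma adjusted p = 0.00153). The tetraspanin Cd82 fell by 0.71 and the tetraspanin Cd37 by 0.26 (limma adjusted p = 0.00362 and 0.0399). Cd53, another tetraspanin, was called higher by 0.65 (limma adjusted p = 0.0179), though DMSO library 2, at 3006, lay above inhibitor library 1, at 2769. Cd9, likewise a tetraspanin and with overlapping values, was called higher by 0.50 (limma adjusted p = 0.0430). The 4 higher genes were 2 without inhibitor library 2 or DMSO library 1 or 3, and the 2 lower were 1 without inhibitor library 1 or 2 or DMSO library 1 or 3.

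Of 8 selectins and selectin ligand genes, 3 were higher, 2 lower and 3 did not pass. Cd44, the hyaluronan receptor, had 3737 ± 180 with the inhibitor and 1955 ± 103 with DMSO (SD, n = 3 per group; limma adjusted p = 4.21e-06), and the precursor marker Cd34 rose by 0.60 on the log2 scale (limma adjusted p = 4.87e-04). Fut7, which makes the sugar that selectins bind, fell by 0.78 (limma adjusted p = 6.31e-05). Selp, P-selectin, rose by 2.43 (limma adjusted p = 3.11e-04) on 22 reads with DMSO in all. There was 1 lower gene without any 1 of the inhibitor libraries or without DMSO library 1 or 3.

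**Figure D5:**
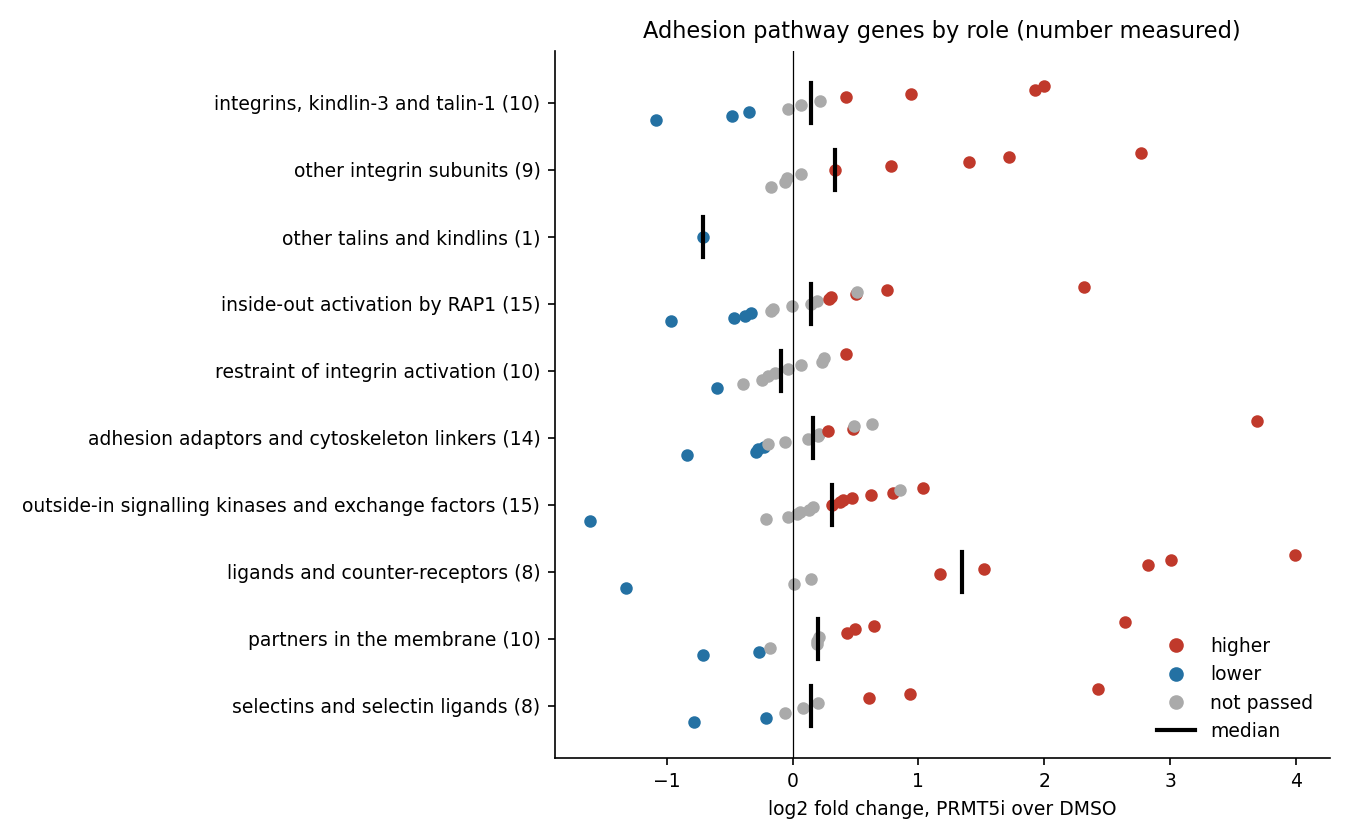
Log2 fold change, PRMT5i over DMSO (x axis), of each measured gene of the set and of the 9 pathway lists (rows, with the number measured). Red points were higher, blue points lower and grey points did not pass, and black bars are medians. The ligands and counter-receptors have the highest median, 1.35, and most lists hold points on either side of 0. That median is over 8 measured genes of 20 listed. It includes Jam2, which was listed only through the inhibitor libraries, where it is high.

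Markers of other blood cells that carry these integrins were read beside the results. Of 13 myeloid markers 12 were measured. Their summed levels were 28746 to 33448 normalized counts with the inhibitor and 16642 to 18463 with DMSO. The largest part of the difference between these sums came from Lyz2. Of the 12, 8 were higher and 2 (Cebpa and Mpo) lower, beside 23.6% higher and 22.9% lower over all genes. Among the higher, Csf1r, the receptor for macrophage colony-stimulating factor, had 3912 ± 165 and 1235 ± 33.6, Fcgr3 1024 ± 90.3 and 383 ± 18.1, Lyz2 10702 ± 2163 and 897 ± 156, and Cd14 435 ± 86.0 and 80.0 ± 13.4 with the inhibitor and DMSO (SD, n = 3 per group), while the leukocyte marker Ptprc had 6867 with the inhibitor and 6900 with DMSO. Spi1, which encodes PU.1, rose by 0.23 (limma adjusted p = 0.0355). For Itgax, 8 of 11 dendritic cell markers were measured, 3 higher and 2 lower, and their sum was 5034 to 5262 with the inhibitor and 9279 to 10304 with DMSO. Most of that sum was Flt3, which averaged 3693 with the inhibitor and 8060 with DMSO. Cd209a and Ciita rose by 2.05 and 2.38, and Flt3 and Siglech fell by 1.12 and 0.66 on the log2 scale. For Itga2b, 4 of 14 megakaryocyte and platelet markers were measured. Their sums were 1538 to 1702 with the inhibitor and 1380 to 1447 with DMSO, most of it Itgb3. Vwf rose by 1.52 on the log2 scale, and Itgb3, Gp5 and Gp9 did not pass. The other 10, Pf4 and Gp1ba among them, had no row in the deposited table. For Itgb7, 4 of 11 mast cell and basophil markers were measured. Their sums were 693 to 844 with the inhibitor and 794 to 1081 with DMSO. Mcpt8 fell by 1.42 on the log2 scale, on 25 reads with the inhibitor and 89 with DMSO in all. Kit, Gata2 and Hdc did not pass. T and NK cell markers (3 of 12, sums of 34.4 to 41.9 with the inhibitor and 20.6 to 38.7 with DMSO), B cell markers (2 of 8, 18.4 to 40.9 with the inhibitor and 38.7 to 47.1 with DMSO) and stromal markers (3 of 10, 3578 to 3996 with the inhibitor and 3010.3 to 3644 with DMSO, nearly all from Pecam1) had no call. Of 10 erythroid markers 1 was measured, the transferrin receptor Tfrc, at 5927 to 7323 with the inhibitor and 7688 to 10174 with DMSO, and it was lower. Sums that rest mostly on 1 gene, as those with Flt3, Itgb3, Kit, Pecam1 and Tfrc do, are not read as the presence of these cell types. The part of these markers in the integrin changes was not tested.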

How the data were processed

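RNA selected for poly(A) tails from MLL-ENL/NrasG12D cells was sequenced after a stranded library preparation, per the labels' protocols. Sample titles gave the groups (3 libraries with EPZ 015666, 3 with DMSO) and replicate numbers. CASAVA 1.8.2, TopHat2 2.0.10, HTSeq 0.6.0, DESeq 1.16.0 and mm10 are named, without roles, in the submitters' processing notes. Annotation, strand setting and the treatment of multiply matching reads were not given in the sources used here, so genes that overlap on opposite strands are less certain. The deposited values are a normalized signal: judging by the values themselves, read counts that the authors divided by a size factor per library. Of all values, 100% were whole multiples of the step of their library, within 1e-06, so whole reads were recovered, with size factors of 0.715 to 1.24.

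The test was limma-trend (version 3.58.1, in R 4.3.3), two-sided, over all 11644 genes on log2 of the normalized count with 1 added, Benjamini-Hochberg adjusted. Each gene had 4 residual degrees of freedom. The SEs, intervals and p-values use variances moderated across genes, and so rest on more degrees of freedom than these 4. The log2 scale with 1 added understates fold changes of low genes. On the recovered reads, edgeR 4.0.16 called 5412 genes in place of 5418. Within groups, the chi-square statistic divided by its degrees of freedom was 9.43 to 20.7, so no library was taken as a duplicate. Gene positions and transcript lengths come from GENCODE mouse release 21 on mm10, and start regions from RefSeq. The genes, lists and tests were chosen with earlier results of these data known. Named were all 10 genes, all measured integrins, talins and kindlins, the 3 genes most correlated with Itgb2 and with Itgb1, and from each other list up to 4 called genes with the smallest adjusted p. Other genes, such as Rap1a, Rap1b, Rassf5, Adgre5, Pycard, Cox6a2, Spi1, Ptprc Cebpa, Mpo and Pecam1, were named after their values were seen. Some members of the lists are counted but not reported by name here.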

Additional observations from a re-analysis of the deposited data

How the results depend on the processing

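Over 129 combinations of a gene of the set with an alternative (pseudocounts of 0.5 and 5, edgeR, DESeq2 1.42.0, upper-quartile scaling, a mean of at least 100 normalized counts, a replicate block, and each library left out), 121 kept direction and side of the threshold, 4 lost the call (Itga4) and 2 gained one (Itgb1). With a library left out, the log2 fold change of Fermt3 ran from -0.0920 to 0.0222 and that of Tln1 from -0.0207 to 0.118: Fermt3 changed sign without inhibitor library 2 (adjusted p = 0.879) and Tln1 without DMSO library 2 (0.908), neither past the threshold. With a change of at least 2-fold also asked, 2 of the 10 genes were higher and 1 lower, and 1188 of all genes were called. With a library left out, 4 to 5 of the 10 were higher and 2 to 3 lower, and of the 90 pathway genes 25 to 35 were higher and 9 to 15 lower, while 4145 to 5346 of all genes were called. The log2 difference in Itgam to Itgal ratio was then 2.91 to 3.17, and no share or ratio changed direction, also without division by length. Same-numbered libraries deviated from their group means with correlations of 0.165, 0.0499 and 0.205 over genes, and each library correlated best with its own number. The main test took no pairs, since the series gives no shared culture or day. With the replicate block 5 of the 10 genes were higher, the added one being Itgb1 (adjusted p = 0.0457), 3 were lower, and 5932 of all genes were called. Itga2b had no value under the minimum of 100, and it rests on 23 DMSO reads in all.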
